A study of Mus musculus with 38 samples.

Results

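The genes of T cells and natural killer (NK) cells described here, 10 of the 28786 gene names on the arrays, were followed through a mouse model of breast cancer. They were Cd3e, Cd3g and Cd3d, Cd8a and Cd8b1, Cd4, Gzmb, Nkg7, Thy1 and Ifng, chosen by name, and they were read by 18 of the 41174 probes that are not controls. Hyperplasias of MMTV-PyMT;actin-GFP mice, in which the mouse mammary tumor virus promoter drives the polyoma middle T oncogene and an actin promoter drives GFP, were transplanted into FVB/n hosts whose own mammary epithelium had been cleared from the fat pad. GFP-positive cells were sorted from all groups, and their RNA was labeled with Cy5 and hybridized to 38 arrays. The competing RNA on every array was the Universal mouse reference in Cy3. The actin promoter is not restricted to epithelium, so the gate itself does not separate carcinoma cells from other GFP-positive cells of the transplant. FVB/n mice carry no GFP, so by design cells of the host should not pass the gate, which was not tested. Lung epithelium genes were high in cells sorted from lungs, as given below.

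In the chemotherapy experiment, 6 tumors were untreated, 6 were residual and 4 were relapsed. Treated mice received docetaxel, doxorubicin and cyclophosphamide, starting 2 months after transplantation. Residual tumors (labeled as regressed) were collected 10 days after dose 1, and relapsed tumors (labeled as resistant) 10 days after dose 4. The resistant tumors are taken to be the relapsed ones, as the remaining treated group. The progression experiment held 5 adenomas from 5-week outgrowths, 6 carcinomas from 18-week outgrowths, 6 samples of disseminated tumor cells from the lungs of mice with 18-week outgrowths and 5 samples of lung metastases from mice whose primary tumors had been removed. No mouse of the progression experiment was treated, each sample of disseminated cells pooled the lungs of several mice, and the RNA of this experiment went through an additional round of amplification. The experiments were normalized and tested separately.

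T cells recognize antigen through a receptor whose signal is carried by the CD3 chains, encoded by Cd3e, Cd3g and Cd3d. CD4 and CD8 are the co-receptors that divide T cells into helper and cytotoxic cells, and granzyme B and NKG7 belong to the cytotoxic granules of T and NK cells. Both cell types secrete interferon gamma, the product of Ifng, which acts through its receptor and the Jak kinases on neighboring cells, tumor cells included, and induces antigen presentation genes, guanylate-binding proteins and the chemokines CXCL9 and CXCL11.

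Every level below is a log2 ratio of the sample to the reference RNA, so 0 means equal to the reference, and levels of different genes cannot be set against each other. A gene was called changed when its log2 change was 1 or more in size and limma's moderated test gave an adjusted p below 0.05. Where groups are said not to overlap, the share of all genes that do so is not given. Such statements describe the values alone. A signal that the scanner software did not rate as well above background is named dim. The median share of spots with a sample signal above that limit was 54.4% for untreated, 57.0% for residual and 58.6% for relapsed tumors. It was 61.6% for adenomas, 74.2% for carcinomas, 70.3% for disseminated cells and 74.6% for metastases. These are sorted bulk samples, in which fewer cells of a type and less RNA per cell cannot be told apart.

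Cd3g and Cd3d lie next to each other on mouse chromosome 9 (GRCm38.p6, 44969572 to 44980431 and 44981769 to 44987052), in opposite orientation and 1337 bases apart, and Cd3e lies at 44998735 to 45009663 of the same chromosome. Ifng lies on chromosome 10 at 118441046 to 118445894 and Nkg7 on chromosome 7 at 43437138 to 43438246. The promoters of Ifng, Nkg7, Cd3d and Cd3g are shown because these 4 genes moved together in the progression experiment. Each is the 250 bases before a RefSeq start site, which for Cd3d lies just inside the span given for the gene, read on the strand of the gene. The spans are chr10:118440796-118441045 (plus) for Ifng, chr7:43436888-43437137 (plus) for Nkg7, chr9:44981536-44981785 (plus) for Cd3d and chr9:44980432-44980681 (minus) for Cd3g. Capitals mark matches to the gamma activated site TTCNNNGAA, which STAT proteins can bind, to TGTGGT, the core letters read by RUNX factors, and to TCACACCT, letters read by T-box factors such as T-bet and Eomes, on both strands.
Ifng: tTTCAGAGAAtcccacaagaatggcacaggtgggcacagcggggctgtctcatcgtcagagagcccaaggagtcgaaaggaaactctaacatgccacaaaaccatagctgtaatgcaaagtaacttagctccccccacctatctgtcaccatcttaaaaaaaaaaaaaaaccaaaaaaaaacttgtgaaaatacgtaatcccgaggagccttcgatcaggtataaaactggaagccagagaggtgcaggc
Nkg7: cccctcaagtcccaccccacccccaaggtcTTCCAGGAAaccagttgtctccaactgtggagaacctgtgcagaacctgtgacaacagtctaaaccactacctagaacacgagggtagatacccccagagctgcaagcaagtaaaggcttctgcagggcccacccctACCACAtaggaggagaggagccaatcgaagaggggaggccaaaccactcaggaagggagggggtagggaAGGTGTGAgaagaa
Cd3d: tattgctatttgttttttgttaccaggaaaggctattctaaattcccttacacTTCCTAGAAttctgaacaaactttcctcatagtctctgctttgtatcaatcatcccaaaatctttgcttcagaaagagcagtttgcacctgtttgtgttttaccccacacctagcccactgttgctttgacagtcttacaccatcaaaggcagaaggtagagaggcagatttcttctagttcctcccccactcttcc
Cd3g: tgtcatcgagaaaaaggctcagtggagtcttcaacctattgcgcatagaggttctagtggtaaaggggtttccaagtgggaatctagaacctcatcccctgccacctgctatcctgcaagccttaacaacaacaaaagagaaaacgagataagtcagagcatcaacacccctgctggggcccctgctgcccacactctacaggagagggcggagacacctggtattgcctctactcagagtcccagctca
The gamma activated site was found once in the Ifng, Nkg7 and Cd3d promoters, and 7.02% of the 32851 mouse promoters of this length hold it. Nkg7 also held 1 match to TGTGGT, present in 14.05% of the promoters, and 1 match to TCACACCT, present in 1.12%. Cd3g held none of the 3 motifs in this window. Of the other members, Gzmb held 2 matches to TGTGGT, Cd3e and Cd8a held none, and Cd8b1, Cd4 and Thy1 were not examined. A match describes these letters and not a bound site.

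The probes differed in what they could show. Of the genes, 7 had more than 1 probe, and the brightest one stood for the gene. For Cd8b1 the brightest probe is placed on chromosome 5 by the array files (build mm7, 114364254 to 114364313), whereas the other Cd8b1 probe lies on chromosome 6 (71355005 to 71355063), the chromosome of the gene. Both are given, since the chromosome 5 probe stayed between -1.60 and 1.19 over all samples of the progression experiment while the chromosome 6 probe ranged from 0.06 to 5.77. No member was saturated on any array.

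The epithelial content of the sorted cells was described with 11 epithelial genes, named the mammary epithelium list. They are not all specific to the mammary gland and cannot show mammary origin in samples from lungs. Their mean log2 ratio was 4.53 ± 0.17 (SD, n = 6) for untreated, 4.65 ± 0.21 (n = 6) for residual and 4.69 ± 0.20 (n = 4) for relapsed tumors, 3.49 ± 0.24 (n = 5) in adenomas and 3.72 ± 0.60 (n = 6) in carcinomas. It was 2.01 ± 1.20 (SD, n = 6) in disseminated cells and 3.38 ± 1.52 (n = 5) in metastases. Disseminated replicates 3 and 5, at 0.49 and 0.94, and metastases replicate 4, at 0.74, were the lowest, and the keratin gene Krt18 was below the reference in these 3 samples (-2.82, -2.40 and -3.59). The means of 15 macrophage genes were high in all 6 disseminated samples (3.59 to 5.19), in metastases replicates 1, 3 and 4 (3.80, 4.48 and 5.28) and in carcinoma replicate 6 (4.83), where the other 5 carcinomas lay between -0.19 and 0.96.

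Ifng was high in adenomas and low in carcinomas. The 5 adenomas had log2 ratios of 4.44, 1.35, 5.57, 5.54 and 4.12 in replicate order. In the 6 carcinomas the lowest, median and highest values were 0.20, 0.59 and 1.62, and replicates 1 and 2 were dim. Adenoma 2 fell within the carcinoma range, and the other 4 adenomas exceeded every carcinoma by more than 2 log2 units. The fitted change from adenoma to carcinoma was -3.54 (SE 0.74, adjusted p = 0.00521), an 11.6-fold lower ratio, or -2.73 (adjusted p = 0.0524) with no normalization between arrays. Adenomas 3 and 4, with the highest Ifng, had the smallest shares of spots well above background in their group (51.1% and 48.4%), adenomas 2 and 5, at Ifng ratios of 1.35 and 4.12, had 74.8% and 75.5%, and carcinomas had 67.5% to 76.7%. The part of this share in the values was not tested. A second Ifng probe, spotted 10 times, gave a group mean of 3.12 in adenomas and 0.47 in carcinomas, and its change of -2.65 was called (adjusted p = 0.00588 over all probes).

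Nkg7 separated adenomas from carcinomas without overlap. Adenomas had log2 ratios of 4.13, 3.92, 5.18, 4.94 and 3.97, and carcinomas ranged from 0.16 through a median of 0.94 to 1.64. No carcinoma came within 2 log2 units of any adenoma, and the change was -3.44 (SE 0.44, adjusted p = 0.000179), a 10.8-fold lower ratio. The second Nkg7 probe changed by -2.82 (adjusted p = 0.000429 over all probes).

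The CD3 delta and gamma chains fell with them. Cd3d had log2 ratios of 3.40, 1.86, 5.14, 4.25 and 3.26 in adenomas and ranged from -0.18 through 0.68 to 1.66 in carcinomas. Its change was -2.81 (SE 0.76, adjusted p = 0.023). Cd3g had log2 ratios of -0.90, -1.61, -0.89, -1.33 and -1.90 in adenomas and ranged from -2.90 through -2.83 to -2.28 in carcinomas. Its change was -1.39 (SE 0.39, adjusted p = 0.0263). For both chains the adenomas and carcinomas did not overlap. Both calls were lost without adenoma 3 (adjusted p = 0.0739 for Cd3d and 0.0732 for Cd3g), and Cd3g was also lost without adenoma 1 or without carcinoma 1, 2 or 3 (adjusted p up to 0.0584). With no normalization between arrays Cd3d changed by -2.13 (adjusted p = 0.126), and its call was lost with the deposited ratios (adjusted p = 0.0513). The replicate number as a block also lost it (adjusted p = 0.0567). Cd3g was lost in these 3 runs too (adjusted p from 0.0536 to 0.102). It was also lost with processed signals of the scanner software (-1.61, adjusted p = 0.0663) and with median centring within arrays (-1.06, adjusted p = 0.111).

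In all, 4 of the 10 genes were called lower and 0 higher in carcinomas than in adenomas, where 3.31% of all genes were called in either direction. The median change of the 10 genes was -0.52, beside 0.07 for all genes. Thy1, a surface glycoprotein of T cells and also of fibroblasts, had log2 ratios of -2.71, -2.77, -2.19, -2.06 and -2.80 in adenomas and -3.59, -3.29 and -3.15 as the lowest, median and highest in carcinomas. These groups did not overlap either, but the change of -0.83 (SE 0.40, adjusted p = 0.18) was not called. Gzmb, Cd8a, Cd4 and Cd3e had changes between -0.21 and 0.29 and were not called. The chromosome 6 probe of Cd8b1 changed by -2.23 (SE 0.90, adjusted p = 0.114 over all probes), with adenomas at 2.55, 0.57, 5.77, 2.72 and 3.13 and 5 of 6 carcinomas below 0.82.

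**Figure D1:**
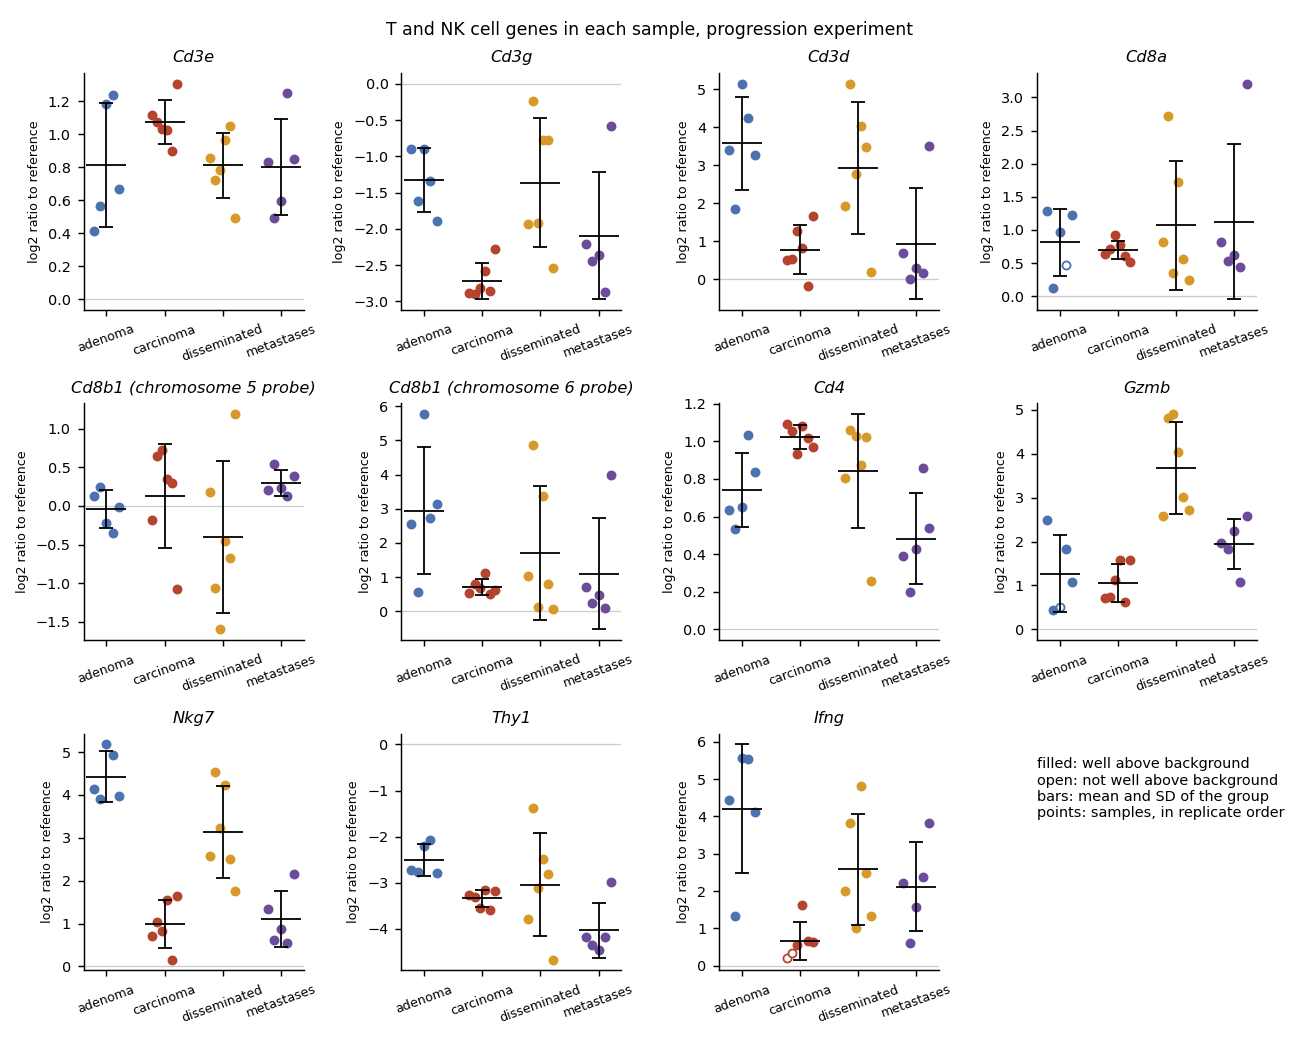
Log2 ratio to the reference RNA (vertical axis) of each gene in each sample of the progression experiment, with both Cd8b1 probes. Points are samples, filled where well above background and open where dim, and bars give the group mean and SD. Nkg7, Cd3d and Cd3g separate adenomas from carcinomas without overlap, Gzmb is highest in disseminated cells, and metastases replicate 5 stands above the other metastases in several panels.

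Gzmb, which encodes granzyme B, was highest in disseminated tumor cells. It had log2 ratios of 2.48, 0.43, 0.52, 1.82 and 1.09 in adenomas, the value of replicate 3 being dim. It ranged from 0.62 through 0.92 to 1.59 in carcinomas and from 2.58 through 3.53 to 4.90 in disseminated cells. Every disseminated sample exceeded every adenoma and every carcinoma. The change was 2.41 (SE 0.45, adjusted p = 0.00171) against adenomas and 2.62 (SE 0.43, adjusted p = 0.000313) against carcinomas, a 5.32-fold and a 6.15-fold higher ratio.

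Nkg7 ranged from 1.75 through 2.90 to 4.55 in disseminated cells. All 6 values lay above the carcinomas, with a change of 2.15 (SE 0.42, adjusted p = 0.00123), and they overlapped the adenomas, from which they differed by -1.29 (SE 0.44, adjusted p = 0.0447), or by 0.04 with no normalization between arrays. The call against adenomas was lost without any 1 of adenomas 1, 3 and 4 or disseminated 1, 3, 5 and 6 (adjusted p from 0.0536 to 0.119). Cd3d ranged from 0.19 through 3.13 to 5.14 and was higher than in carcinomas by 2.15 (SE 0.73, adjusted p = 0.034), a call lost without any 1 of carcinomas 1, 2, 4 and 5 or disseminated 2, 3, 4 and 5 (adjusted p from 0.0518 to 0.0829). Cd3g ranged from -2.55 through -1.35 to -0.23 and was higher by 1.36 (SE 0.37, adjusted p = 0.011). Ifng ranged from 1.02 through 2.24 to 4.81. It was not called against carcinomas (1.91, SE 0.71, adjusted p = 0.0514) or against adenomas (-1.62, SE 0.74, adjusted p = 0.128). It was called against carcinomas without disseminated 3 (2.22, adjusted p = 0.0337) or 6 (2.16, adjusted p = 0.0355), and against adenomas without disseminated 4 (-2.07, adjusted p = 0.0389) or adenoma 2 (-2.34, adjusted p = 0.022).

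Thus 4 of the 10 genes were called higher and 0 lower in disseminated cells than in carcinomas, where 11.6% of all genes were called, and 1 was called higher and 1 lower than in adenomas, where 10.5% were called. The spread among disseminated samples was wide. Replicates 2 and 4, which shared slide 9 with adenoma 3, had the 2 highest values of Cd3d (5.14 and 4.04), Ifng (3.83 and 4.81), Nkg7 (4.55 and 4.23), Cd8a (2.73 and 1.72) and the Cd8b1 chromosome 6 probe (4.86 and 3.37). Without slide 9, the called genes against carcinomas were Gzmb (2.25) and Nkg7 (1.53) alone, with Cd3g at 0.93 (adjusted p = 0.0692) and Cd3d at 1.32 (adjusted p = 0.164). Against adenomas, 4 were then called, with Ifng at -2.15 (adjusted p = 0.041) and Thy1 at -1.01 (adjusted p = 0.0438) in addition to Gzmb and Nkg7.

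Within the 3 slides that held both adenomas and disseminated cells (slides 6, 9 and 10), Gzmb differed by 0.50, 3.91 and 3.20, Nkg7 by -2.37, -0.79 and -1.08 and Ifng by -3.32, -1.25 and -0.98. With the slide as a fixed block, Gzmb changed by 2.36 (adjusted p = 0.00307), Nkg7 by -1.49 (adjusted p = 0.00524) and Ifng by -1.93 (adjusted p = 0.0257). Carcinomas and metastases lay on other slides and were scanned on another day than adenomas and disseminated cells. In comparisons across these pairs of groups, slide and scan cannot be told apart from the group. With the slide as a random block, the calls of the 10 genes in those comparisons were the ones given here.

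**Figure D2:**
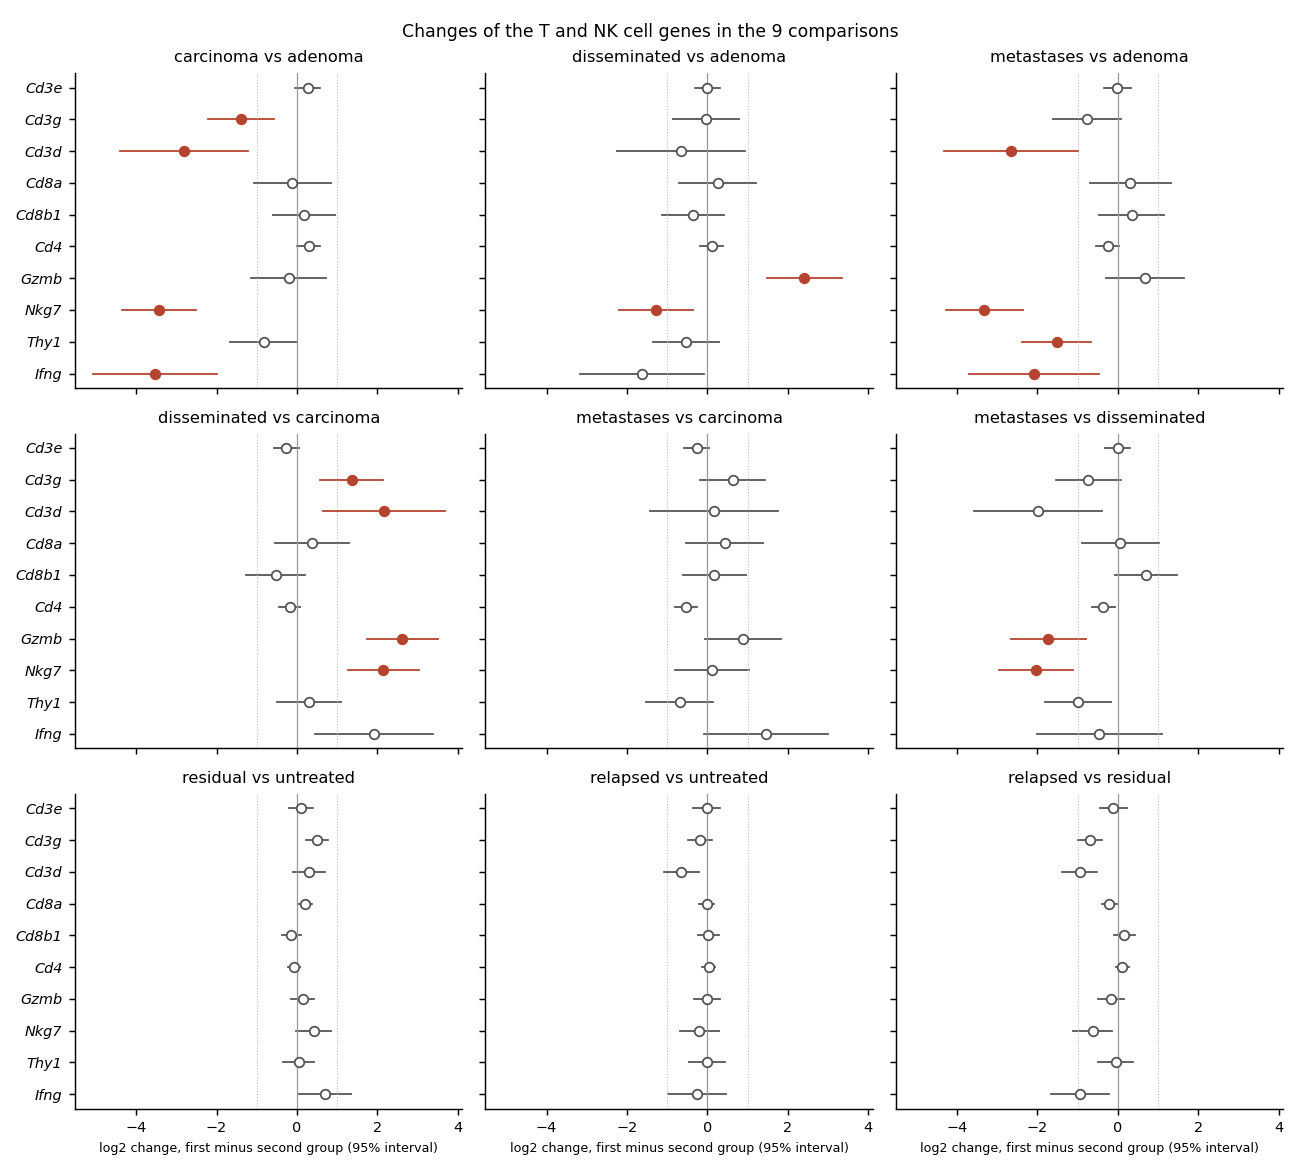
Log2 change of each gene in the 9 comparisons, as the first minus the second group, with its 95% interval. Filled red points are called genes, and dotted lines mark a change of 1 in either direction. The filled points lie in the comparisons of the progression experiment and none in those of the chemotherapy experiment.

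In metastases Cd3d, Cd8a and the chromosome 6 probe of Cd8b1 were low in 4 samples and high in the other. Metastases replicate 5 had the highest value of 8 of the 10 genes within its group. Cd3d was 0.70, 0.00, 0.30, 0.16 and 3.50 in replicate order. Cd8a was 0.83, 0.53, 0.62, 0.45 and 3.20. The chromosome 6 probe of Cd8b1 was 0.72, 0.24, 0.47, 0.09 and 3.99. The carcinomas, for comparison, lay between -0.18 and 1.66 for Cd3d, between 0.52 and 0.92 for Cd8a and between 0.50 and 1.12 for the Cd8b1 probe. Replicate 5 had a macrophage mean of 1.66 and a mammary epithelium mean of 4.11, and its lung epithelium mean of 3.30 was the highest of the 5.

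Ifng in metastases was spread over the samples, with log2 ratios of 2.22, 0.60, 1.57, 2.37 and 3.84. Against adenomas it changed by -2.09 (SE 0.77, adjusted p = 0.0495), a call that was lost without any 1 of adenomas 1, 3, 4 and 5 or of metastases 1 to 4 (adjusted p from 0.072 to 0.129), and the change was -1.04 (adjusted p = 0.409) with no normalization between arrays. Against carcinomas it changed by 1.45 (SE 0.74, adjusted p = 0.178). Nkg7 was 1.34, 0.61, 0.88, 0.55 and 2.15, below every adenoma, and changed by -3.32 (SE 0.46, adjusted p = 5.7e-05). Thy1 was -4.19, -4.36, -4.45, -4.17 and -3.00, also below every adenoma, and changed by -1.52 (SE 0.41, adjusted p = 0.00944). Of 8 fibroblast genes 4 were called lower and 0 higher in the same comparison, with a median of -1.41, and their mean log2 ratio was -2.00 ± 0.61 in adenomas and -3.88 ± 0.72 in metastases. Their part in the value of Thy1 was not tested. Cd3d changed by -2.65 (SE 0.80, adjusted p = 0.0176), and by -2.26 without adenoma 3 (adjusted p = 0.0548). With no normalization between arrays the Cd3d change was -1.77 (adjusted p = 0.15), and the methods' t-test gave an adjusted p of 0.0566.

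So 4 of the 10 genes were called lower in metastases than in adenomas, where 14.6% of all genes were called. Against carcinomas 0 of 10 were called by limma or by the methods' t-test, where 10.1% of all genes were. In limma's fit of all groups, 9753 of 28786 genes had an unadjusted p below 0.05, and of the 10 only Cd4 did. Cd4 passed the adjusted p of that fit (0.00715) without reaching a change of 1, at -0.54 (SE 0.13). Its values were 0.39, 0.20, 0.43, 0.86 and 0.54 in metastases and between 0.93 and 1.09 in carcinomas. With processed signals, Ifng (1.80, adjusted p = 0.0441) and Gzmb (1.43, adjusted p = 0.0243) were called higher than in carcinomas, and Ifng was also called when limma's fit held only these groups (1.45, adjusted p = 0.0494). Within slides 7, 8 and 11, which held both groups, Cd4 differed by -0.39, -0.58 and -0.79 and Ifng by 1.92, 1.72 and -0.05.

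Against disseminated cells 2 of 10 were called in metastases, where 7.11% of all genes were, which are 2047 genes, 3175 without disseminated 6, 1082 without slide 9 and 166 by the methods' t-test. Gzmb was 1.96, 1.83, 2.25, 1.09 and 2.59 and changed by -1.74 (SE 0.45, adjusted p = 0.0145), or by -0.87 (adjusted p = 0.209) with the processed signals of the scanner software and -1.36 (adjusted p = 0.0895) without slide 9. Nkg7 changed by -2.03 (SE 0.44, adjusted p = 0.00512). Without metastases 5, calls were added for Cd3d (-2.63, adjusted p = 0.0237), Cd3g (-1.11, adjusted p = 0.0452) and Thy1 (-1.25, adjusted p = 0.0492), and Cd3g was then also called against adenomas (-1.14, adjusted p = 0.0228). Without disseminated 6, the added calls were Cd3d (-2.54, adjusted p = 0.0131), Thy1 (-1.32, adjusted p = 0.00855) and the chromosome 5 probe of Cd8b1 (1.02, adjusted p = 0.023).

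By group mean, the order of Ifng was adenoma (4.20 ± 1.72, n = 5), disseminated (2.58 ± 1.47, n = 6), metastases (2.12 ± 1.19, n = 5) and carcinoma (0.67 ± 0.50, n = 6). Of the neighbors in this order, disseminated cells and metastases differed by 0.46 with a 95% interval of the change from -2.01 to 1.09, and neither the step from adenoma to disseminated cells nor that from metastases to carcinoma was called. Nkg7 followed the order adenoma (4.43 ± 0.59), disseminated (3.14 ± 1.08), metastases (1.11 ± 0.66) and carcinoma (0.99 ± 0.55). Gzmb followed another order, with disseminated cells (3.68 ± 1.04) above metastases (1.94 ± 0.56), adenomas (1.27 ± 0.88) and carcinomas (1.06 ± 0.44). The difference between these patterns over the groups was not tested.

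The brightest probe of Cd3e did not follow Cd3d and Cd3g in the progression experiment. Values of its dimmer probe are not given, so a trait of the gene and one of the probe cannot be told apart. Over the 22 arrays of this experiment Cd4 correlated with Cd3d at 0.24 and with Ifng at -0.01. Cd3e had group means of 0.81 ± 0.37 in adenomas, 1.08 ± 0.13 in carcinomas, 0.81 ± 0.20 in disseminated cells and 0.80 ± 0.29 in metastases, all well above background. Its correlation with Cd3d over the 22 arrays was 0.10, and with Cd3g -0.14, although the 3 genes encode chains of 1 complex. With Cd4 it was 0.64, against -0.43 over the 16 arrays of the chemotherapy experiment, where the highest of its correlations with the 7 other members compared was 0.58 (Thy1). The 5 genes most alike to Cd3e over these arrays, of 22124 compared, included Alx4 (r = 0.90), Cmar (0.89) and Msx1 (0.89) and no other T cell gene. Over the 16 arrays of the chemotherapy experiment Msx1 was again among the 5 (r = 0.83), with Dnaaf6b, Slc22a30 and Nckap5l.

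For Ifng the most alike genes in the progression experiment were Il2rb (r = 0.88), the beta chain of the interleukin 2 receptor, Wars (0.84), a tRNA synthetase induced by interferon gamma, Cd3d (0.83), Prkcq (0.82), a kinase of T cell receptor signaling, and Nkg7 (0.81). In the chemotherapy experiment they were Nkg7 (r = 0.85), Gm1966 (0.84), Icos (0.80), a co-stimulatory receptor of T cells, Il2rb (0.79) and LOC665500 (0.78), of 16400 genes compared. These correlations are descriptions over 22 and 16 arrays that share groups, slides and a reference RNA.

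The other T cell genes were described by lists written from general knowledge. Of 27 further T cell genes, 4 were called lower and 0 higher in carcinomas than in adenomas, beside 3.31% of all genes called, with a median change of -0.36. They included Icos (-2.62, adjusted p = 0.035), Txk (-2.57, adjusted p = 0.00555), a kinase of T and NK cells, and Cd7 (-1.50, adjusted p = 0.0284). The count of 4 fell to 1 without any 1 of adenomas 1, 3 and 4 or carcinomas 1, 2, 3 and 5, and to 2 without carcinoma 4. Of 23 cytotoxic and NK genes, 5 were called lower and 0 higher, again with a median of -0.36. The largest falls were Il2rb (-3.55, adjusted p = 0.00213), the chemokine gene Xcl1 (-3.55, adjusted p = 0.000164) and Crtam (-2.21, adjusted p = 0.0165).

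In disseminated cells against carcinomas, 8 of the 27 T cell genes and 4 of the 23 cytotoxic and NK genes were called higher and 0 lower, with medians of 0.63 and 0.61, beside 11.6% of all genes called. The count of 4 fell to 2 without disseminated 2 or carcinoma 5. Of the T cell genes, 2 were called lower without disseminated 6 and 1 without carcinoma 6. Il7r, the interleukin 7 receptor, rose by 3.99 (adjusted p = 0.00105), Rhoh by 2.92 (adjusted p = 0.00281), Icos by 2.91 (adjusted p = 0.00734) and Klrd1, an NK cell receptor, by 1.66 (adjusted p = 0.00457). Xcl1 ran the other way from Gzmb, at 5.57 ± 0.68 in adenomas and 1.46 ± 1.12 in disseminated cells, a change of -4.11 (SE 0.45, adjusted p = 2.47e-05). In disseminated cells against adenomas, 3 of the T cell genes were called higher and 0 lower, beside 10.5% of all genes called. Of the cytotoxic and NK genes, 1 was called higher and 2 lower there. The 1 higher fell to 0 without any 1 adenoma or without disseminated 3 or 5, and 1 T cell gene was called lower without disseminated 2 or 6. In metastases against adenomas, 2 of the T cell genes were called higher and 3 lower, and 0 and 4 of the cytotoxic and NK genes, beside 14.6% of all genes called. The T cell count of 2 fell to 1 without any 1 of adenomas 3 and 5 or metastases 2, 3 and 5, and the cytotoxic count of 4 fell to 2 without adenoma 3. Against carcinomas, 5 of the T cell and 3 of the cytotoxic and NK genes had an unadjusted p below 0.05, beside 9753 of 28786 genes. Of these lists, 1 T cell gene (Il7r, 3.25, adjusted p = 0.00727) and 0 cytotoxic and NK genes were called there by limma, beside 10.1% of all genes called. The T cell count was 2 without metastases 2 or 4 and 3 without carcinoma 6, and the cytotoxic count 1 without carcinoma 6 or metastases 5. Against disseminated cells, 1 of the T cell genes was called higher and 1 lower in metastases, beside 7.11% of all genes called. Of the cytotoxic and NK genes 0 were. With samples left out, the T cell counts ranged from 1 to 2 higher and from 0 to 7 lower.

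Markers of other cells moved with the disseminated cells. Of 15 macrophage genes 11, of 10 neutrophil genes 9, of 8 genes of all leukocytes 8 and of 7 lung epithelium genes 5 were called higher than in carcinomas, and 4 of 11 mammary epithelium genes were called lower. In metastases against carcinomas, 4 of the macrophage, 2 of the leukocyte and 3 of the lung epithelium genes were called higher. Between carcinomas and adenomas 0 genes of these 5 lists were called by limma, and 1 neutrophil, 1 lung epithelium and 2 mammary epithelium genes had an unadjusted p below 0.05. Of all 28786 genes, 7852 did. Other lists did move there. Of 8 fibroblast genes 2 were called lower and 0 higher in carcinomas than in adenomas (Col1a1, a collagen chain, at -2.06, and Pdgfra, a growth factor receptor, at -1.05), with a median of -1.08, and of 8 endothelial genes 1 was called higher (Emcn, 1.88). Macrophage means were 0.56 ± 0.27 in adenomas, 1.20 ± 1.82 in carcinomas, 4.42 ± 0.55 in disseminated cells and 3.28 ± 1.79 in metastases, and at least 2 genes of each of these lists were well above background in every sample. Lung epithelium means were 1.08 ± 0.29 in adenomas, 1.18 ± 0.27 in carcinomas, 3.27 ± 0.74 in disseminated cells and 2.39 ± 0.53 in metastases. Whether host cells of the lung passed the gate was not tested. The part of other cells in the values of Gzmb, Nkg7, Cd3d and Cd3g was not tested. Carcinoma 6, which had the macrophage mean of 4.83, was not the highest carcinoma for Ifng (0.63), and its values of Cd3d (1.66), Nkg7 (1.64) and Gzmb (1.58) were the highest or next to the highest of the carcinomas.

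**Figure D3:**
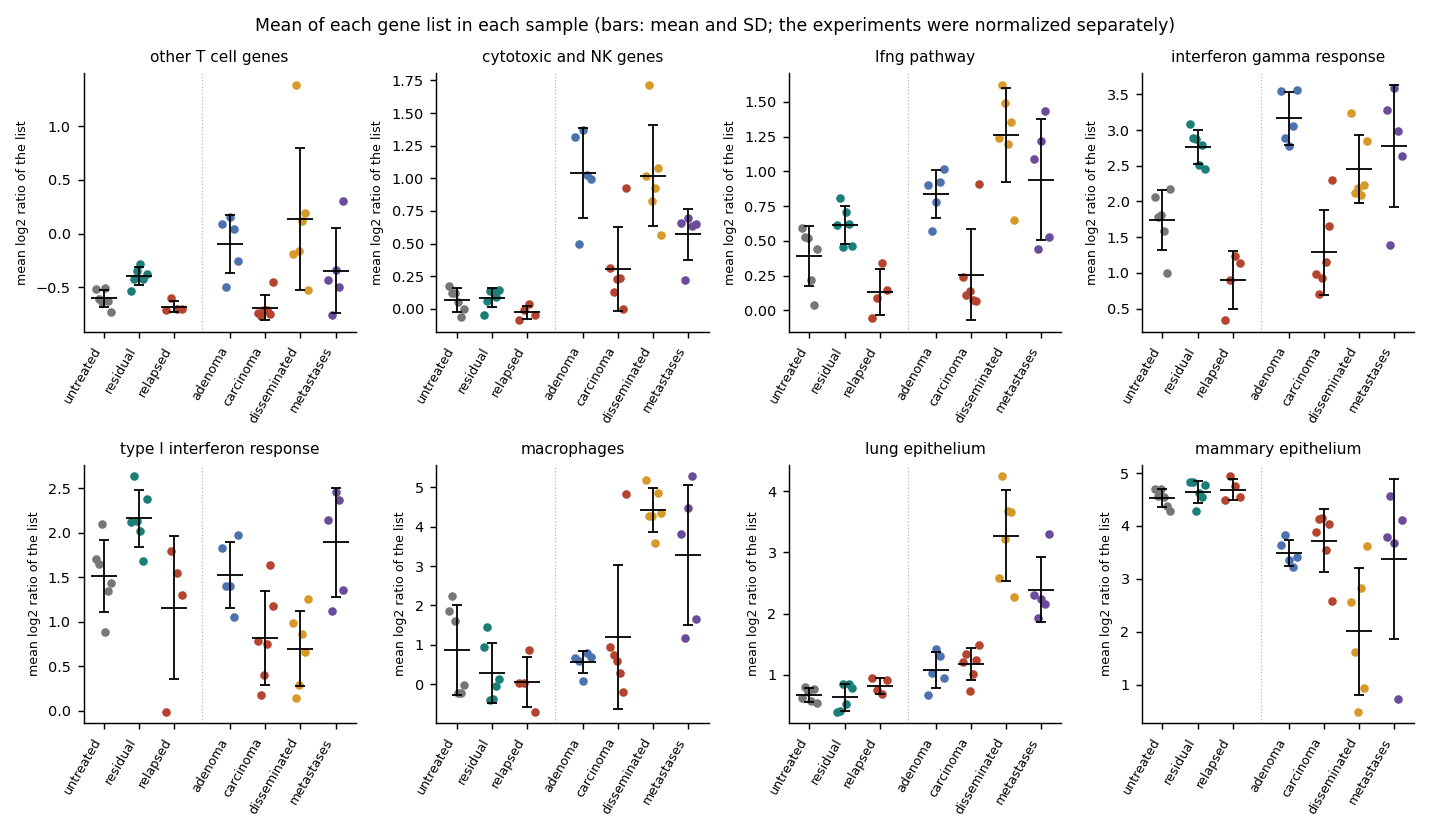
Mean log2 ratio of 8 gene lists (vertical axis) in each sample of the 7 groups, with bars for the group mean and SD. A dotted line divides the chemotherapy from the progression experiment, which were normalized separately. The T cell and cytotoxic lists are low in carcinomas, the macrophage and lung epithelium lists are high in disseminated cells, and the interferon gamma response list is higher in residual than in relapsed tumors.

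Ifng, Cd8a and Gzmb were near the limit of detection in the chemotherapy experiment. Ifng was 0.17, 0.39 and 0.69 as the lowest, median and highest of 6 untreated tumors, of which 3 were dim. In residual tumors it was -0.08, 0.44, 1.51, 1.77, 2.26 and 0.55 in replicate order, dim in replicate 1. In relapsed tumors it was -0.04, 0.18, 0.27 and 0.12, all dim. Residual replicates 3, 4 and 5 were above every other tumor, and the other 3 residual tumors overlapped the untreated ones. The change was 0.69 (SE 0.30, adjusted p = 0.518) from untreated to residual. From residual to relapsed it was -0.94 (SE 0.34, adjusted p = 0.472), a size that is not exact because every relapsed value was dim. No relapsed tumor gave a signal well above background, so a fold was taken from the sample channel alone, normalized by loess and Aquantile and open to dye bias. On that scale the mean residual signal, with 5 of 6 tumors measured, was 1.97-fold higher than in relapsed tumors. The dim residual tumor could lie lower, so this is not a strict lower bound.

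The 3 high residual tumors were the arrays of slide 4, which held no other group. Their shares of spots well above background (58.4% to 60.6%) were above those of the other residual tumors (50.7%, 51.2% and 55.7%), whereas relapsed replicate 4, with 64.3%, was dim. The part of this share in the values was not tested. Without them Ifng differed between residual and untreated tumors by -0.08, and Nkg7 by -0.01, while Cd3g differed by 0.34 (adjusted p = 0.371). Slide 1 held both residual and untreated tumors, and there Cd3g differed by 0.45, and Ifng by -0.51 with 1 of the residual tumors dim. With the slide as a fixed block, Ifng changed by -0.24 (adjusted p = 0.878). On slide 5, which held residual and relapsed tumors, the relapsed ones were lower by 1.07 for Cd3d and by 0.33 for Cd3g on the log2 scale, and Ifng was dim in the relapsed ones. The second Ifng probe was dim in all untreated and relapsed tumors and gave 0.81, 0.80 and 1.17 in residual replicates 3 to 5, the only samples of this experiment in which it was well above background.

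Nkg7 in residual tumors was -0.11, 0.55, 1.31, 1.24, 1.23 and 0.74 in replicate order, against 0.11, 0.40 and 0.75 as lowest, median and highest in untreated tumors and 0.25, -0.01, 0.07 and 0.51 in relapsed ones. It too was highest in the 3 tumors of slide 4. Cd8a was dim in every untreated tumor and well above background in 4 residual tumors (0.32 to 0.56) and 1 relapsed tumor (0.26). Its mean residual signal in the sample channel was 1.16-fold higher than in untreated tumors, with 4 of 6 residual tumors measured. The dim residual tumors could lie lower, so this is not a strict lower bound either. Gzmb was well above background in 2 untreated, 2 residual and 0 relapsed tumors, with means of 0.34 ± 0.24, 0.48 ± 0.32 and 0.31 ± 0.04.

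Cd3d and Cd3g had their lowest group means in relapsed tumors, without a call. Cd3d was -0.04, 0.17 and 1.01 as lowest, median and highest in untreated tumors, 0.07, 0.68 and 0.98 in residual tumors and -0.25, -0.56, -0.59 and -0.19 in relapsed tumors. Every relapsed tumor was below every untreated and every residual tumor. Its change from residual to relapsed was -0.95 (SE 0.21, adjusted p = 0.08) and from untreated to relapsed -0.65 (SE 0.21, adjusted p = 0.375). Cd3g was -2.70, -2.42 and -2.01 in untreated tumors, -2.33, -1.83 and -1.62 in residual tumors and -2.65, -2.66, -2.47 and -2.56 in relapsed ones. Residual and relapsed tumors did not overlap, and the change was -0.69 (SE 0.14, adjusted p = 0.0528). Cd3d was called between residual and relapsed tumors without residual 1 (-1.04, adjusted p = 0.0492), with a normexp offset of 0 (-1.59, adjusted p = 0.0292), with median centring (-1.02, adjusted p = 0.0256) and with processed signals from the scanner (-2.52, adjusted p = 0.024). Cd3g was called with the processed signals (-1.44, adjusted p = 0.0318).

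The chromosome 6 probe of Cd8b1 had its highest mean in residual tumors (1.27 ± 0.50), followed by untreated (0.72 ± 0.31) and relapsed ones (0.31 ± 0.39), and its change of -0.96 (SE 0.24) from residual to relapsed had an adjusted p of 0.191 over all probes. Cd4, Cd3e and Thy1 differed by at most 0.11 on the log2 scale between any 2 of these groups.

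None of the 10 genes was called in the chemotherapy experiment, and few genes of the array were. The called share of all genes was 0.101% between residual and untreated tumors, 0.00347% between relapsed and untreated tumors and 0.212% between relapsed and residual tumors. These are 29, 1 and 61 genes. The first count fell to between 8 and 19 without any 1 of untreated replicates 1 to 5 or residual replicates 1, 2, 4 and 5, the next ranged from 0 to 3 when samples were left out, and the last fell to 29 without relapsed replicate 1. Of the 27 other T cell genes and the 23 cytotoxic and NK genes, 0 were called in any of these comparisons by limma's test. At an unadjusted p below 0.05, 3 of the 10 genes passed between residual and untreated tumors (Cd3g, Cd8a and Ifng), 1 between relapsed and untreated tumors (Cd3d) and 5 between relapsed and residual tumors (Cd3g, Cd3d, Cd8a, Nkg7 and Ifng). The corresponding counts were 9, 3 and 10 of the other T cell genes and 1, 1 and 3 of the cytotoxic and NK genes. Of all 28786 genes, 2611, 2200 and 2231 passed this limit in the same order of comparisons. Without residual replicate 1, 1 other T cell gene and 1 cytotoxic or NK gene were called lower in relapsed than in residual tumors. The methods' t-test with the same thresholds called 0 of the 10 genes as well.

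**Figure D4:**
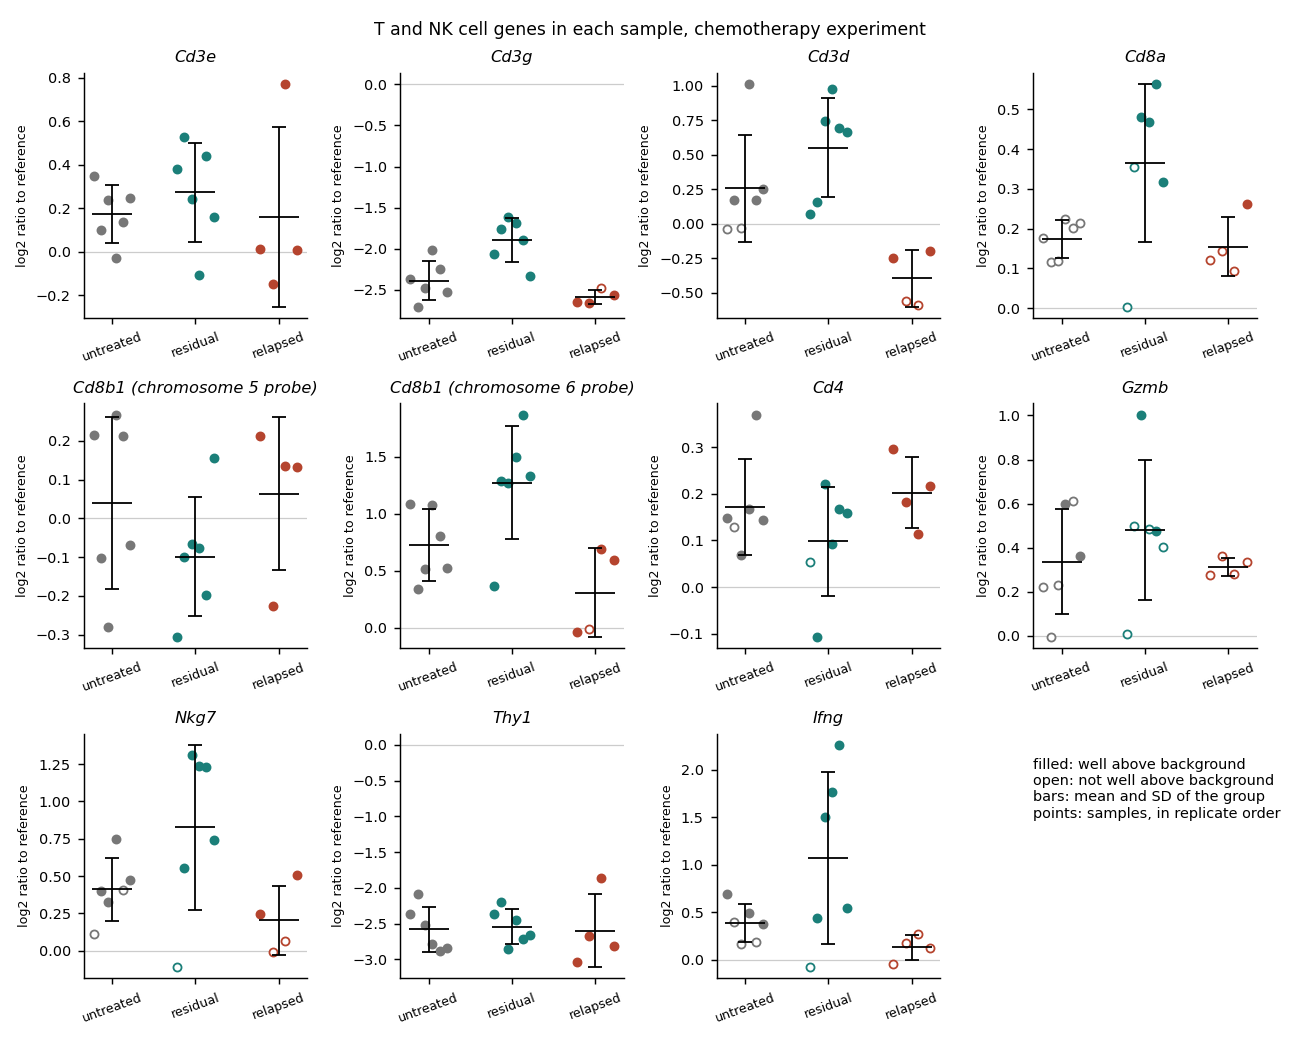
Log2 ratio to the reference RNA (vertical axis) of each gene in each tumor of the chemotherapy experiment, with both Cd8b1 probes. Points are tumors, filled where well above background and open where dim, and bars give the group mean and SD. Ifng and Nkg7 are highest in residual replicates 3 to 5, and Cd3d is lower in all 4 relapsed tumors than in the other groups.

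The genes that interferon gamma induces were measured in the same tumors, with 95.1% of the list well above background on average in untreated tumors, 100% in residual ones and 94.1% in relapsed ones. The mean of 34 response genes was 1.73 ± 0.42 (SD, n = 6) for untreated, 2.77 ± 0.24 (n = 6) for residual and 0.90 ± 0.40 (n = 4) for relapsed tumors. Between residual and untreated tumors 9 of the 34 were called higher and 0 lower, among them Ubd (2.48, adjusted p = 0.0273) and the guanylate-binding protein genes Gbp6 (2.33, adjusted p = 0.00384) and Gbp4 (1.98, adjusted p = 0.0176). Between relapsed and residual tumors 21 were called lower and 0 higher, among them Ubd (-4.14, adjusted p = 0.00086) and Tgtp1 (-3.31, adjusted p = 0.00576). Residual replicate 1 had the highest response mean of the experiment (3.08) with Ifng dim at -0.08. Without slide 4 the counts were 3 of 34 called higher in residual than in untreated tumors and 14 called lower in relapsed than in residual tumors, and with the slide as a fixed block they were 1 and 12. The first count also fell to between 2 and 5 when any 1 of untreated replicates 1 to 5 or residual replicates 1 to 5 was left out.

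In the progression experiment the response list was 3.16 ± 0.37 (SD, n = 5) in adenomas, 1.29 ± 0.59 (n = 6) in carcinomas, 2.45 ± 0.48 (n = 6) in disseminated cells and 2.78 ± 0.85 (n = 5) in metastases. Of the 34 genes, 21 were called lower and 0 higher in carcinomas than in adenomas, beside 3.31% of all genes called. They included Cxcl9 (-4.25, adjusted p = 0.000466) and Cxcl11 (-4.11, adjusted p = 0.00482). Between metastases and carcinomas 18 were called higher and 0 lower (10.1% of all genes called), including Gbp3 (2.69, adjusted p = 0.000873). Between disseminated cells and carcinomas 10 were called higher (11.6% of all genes called), led by Cd274, which encodes PD-L1 (3.77, adjusted p = 0.000738). The count was 16 without carcinoma 6, whose response mean of 2.31 was the highest of its group. Against adenomas, 1 was called higher and 10 lower in disseminated cells (6 lower without adenoma 1 or disseminated 5), beside 10.5% of all genes called. In metastases 3 were called higher and 7 lower than in adenomas, beside 14.6% of all genes called. These counts were 1 and 11 without metastases 3, with 5 higher without metastases 2 and 1 higher without adenoma 3 or 4. Metastases had 6 called higher and 0 lower than disseminated cells (7.11% of all genes called), or 3 higher without metastases 3 and 2 lower without metastases 1.

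Of 17 genes that act upstream or downstream of Ifng, 4 were called lower and 0 higher in carcinomas than in adenomas, beside 3.31% of all genes called. Among them were Ciita (-2.08, adjusted p = 0.00703), the class II transactivator, Il12rb1 (-1.81, adjusted p = 0.012), a chain of the interleukin 12 receptor, and Tbx21 (-1.17, adjusted p = 0.0247), which encodes T-bet. The count of 4 fell to 2 without adenoma 1 or carcinoma 2. In disseminated cells 6 were called higher than in carcinomas (11.6% of all genes called), among them Jak2 (2.26, adjusted p = 0.000796), Il18 (2.07, adjusted p = 0.00214), a cytokine that induces Ifng, and Stat4 (2.05, adjusted p = 0.0136). In metastases 7 were called higher than in carcinomas (10.1% of all genes called), among them Il12b (2.07, adjusted p = 0.0163), which encodes a chain of interleukin 12, and Jak2 (1.60, adjusted p = 0.0133). The count of 7 fell to 4 without metastases 1 or 3 and to 3 without metastases 4. Against adenomas, 5 were called higher and 1 lower in disseminated cells (10.5% of all genes called). In metastases 3 were called higher and 3 lower than in adenomas (14.6% of all genes called). The 5 fell to 3 without adenoma 1, adenoma 3 or disseminated 5, the 1 lower in disseminated cells was 2 without disseminated 2, and in metastases 5 were higher without replicate 5 and 1 lower without replicate 3. After chemotherapy, 2 were called lower in relapsed than in residual tumors, among them Irf1 (-1.63, adjusted p = 0.00367), or 1 without relapsed 1, and 0 of the 17 were called in the other 2 comparisons.

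Type I interferons act through another receptor and share some target genes with interferon gamma. Of 26 type I response genes, 0 were called in the chemotherapy experiment by limma, where 16 had an unadjusted p below 0.05 between residual and untreated tumors, 1 between relapsed and untreated tumors and 18 between relapsed and residual tumors. Of all 28786 genes, 2611, 2200 and 2231 had such a p in these comparisons. Without residual 5, relapsed 2 or relapsed 3, 1 type I gene was called lower in relapsed than in residual tumors. In the progression experiment 5 were called lower in carcinomas than in adenomas (3.31% of all genes called), 9 lower in disseminated cells than in adenomas (10.5%), 4 higher and 3 lower in metastases than in adenomas (14.6%), and 1 higher and 1 lower in disseminated cells than in carcinomas (11.6%). Without metastases 2 the count of 4 was 9, without metastases 5 it was 7, without metastases 4 the count of 3 was 1, and without disseminated 4 there were 2 lower than in carcinomas. Of the same genes, 11 were called higher in metastases than in carcinomas (7 without carcinoma 1 or metastases 3, beside 10.1% of all genes) and 11 higher than in disseminated cells (7.11%).

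Within groups, no relation between Ifng and its response genes was detected. Ifng was dim in 8 of the 16 tumors of the chemotherapy experiment, all 4 relapsed ones included, so the relation there rests partly on values at the background. For each sample, the deviation of Ifng from its group mean was set against that of the response mean. Pearson's r was -0.01 (permutation p = 0.972) and Spearman's rho 0.04 (p = 0.876) over the 16 tumors of the chemotherapy experiment, and 0.01 (p = 0.963) and -0.06 (p = 0.793) over the 22 samples of the progression experiment. Without the 2 samples farthest from the median of the response mean, r was 0.16 and -0.02. In limma's fit with the groups as terms, the slope of Ifng on the response mean had an adjusted p of 0.998 in the first and 0.992 in the second experiment. With the slide as a fixed block these slopes were 0.09 (adjusted p = 0.984) and 0.30 (adjusted p = 0.875).

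Of the 20 relations computed between the 10 genes and this list in both experiments, 0 were called, where 0.0139% and 0.448% of all genes were. At an unadjusted p below 0.05 in the same limma fits there were 2033 and 3929 of all 28786 genes, and 0 of the 20 relations. The largest Pearson correlation was that of Cd4 in the chemotherapy experiment (r = -0.62, permutation p = 0.0165, adjusted p of the slope 0.708), and the largest rank correlation that of Cd3e there (rho = 0.64, permutation p = 0.00857, adjusted p of the slope 0.711). With the type I response list in place of the interferon gamma list, 20 more relations were computed and 0 were called, where 0.135% of all genes were in the chemotherapy and 0.0556% in the progression experiment. An unadjusted slope p below 0.05 was found for 2796 of all genes in the chemotherapy and 3099 in the progression experiment. It was found for 5 of these 20 relations. They were Cd3d (r = -0.58, adjusted p of the slope 0.487) and Thy1 (r = 0.56, adjusted p 0.487) in the chemotherapy experiment, and Cd3d (r = -0.45, adjusted p 0.441), Nkg7 (r = -0.46, adjusted p 0.439) and Thy1 (r = -0.52, adjusted p 0.387) in the progression experiment.

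**Figure D5:**
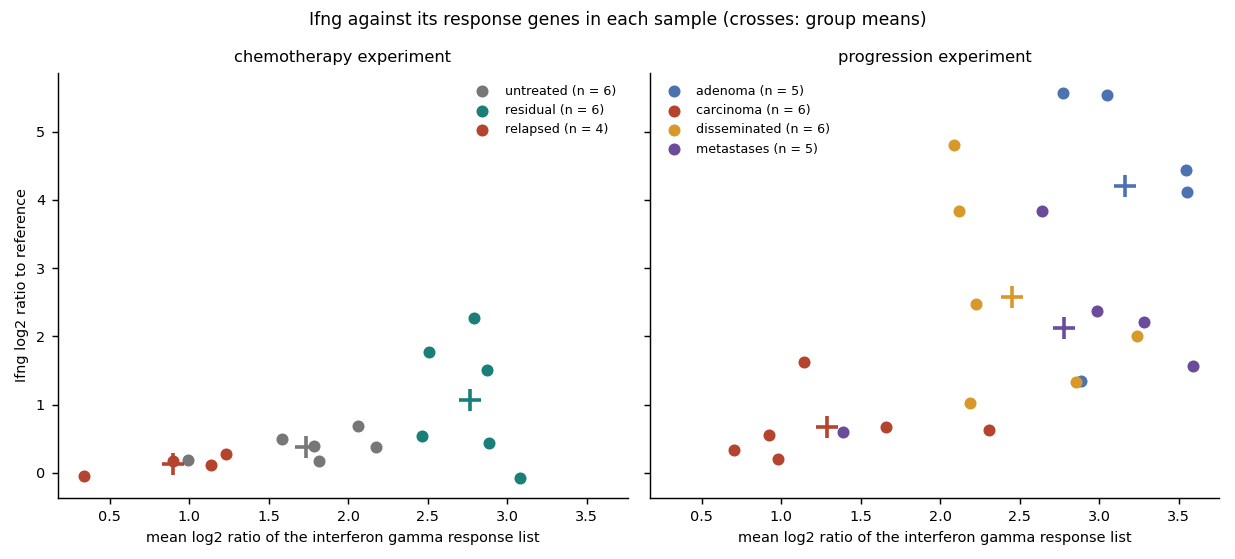
Log2 ratio of Ifng (vertical axis) against the mean log2 ratio of the 34 interferon gamma response genes (horizontal axis) in each sample, with a panel for each experiment and crosses for group means. Residual tumors share a response mean of 2.46 to 3.08 while Ifng ranges from -0.08 to 2.26, and adenoma 2 combines a response mean of 2.89 with an Ifng ratio of 1.35.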

How the data were processed

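The deposited array files hold raw intensity values from Agilent Feature Extraction 10.7, with median backgrounds and quality flags for both channels. The authors also deposited log2 ratios that they had corrected and normalized with limma. The raw intensities were used. The deposited ratios were an alternative (r from 0.966 to 0.998 with the values used). Normexp background correction (offset 50), loess for each array and quantile normalization for each experiment were run in limma 3.58.1 under R 4.3.3, with statmod 1.5.0. Repeated spots were averaged per probe, and the brightest probe stood for its gene. Probes were named through the RefSeq table for 22951 and from the array files for 18223. Probe positions are those of build mm7 and gene positions and promoters those of RefSeq, GRCm38.p6, which were not mixed.

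Each experiment was fitted as a whole in limma, without covariates. P-values of its moderated test were adjusted (Benjamini-Hochberg) over 28786 genes, or over 41174 probes where a single probe is given. The run named the methods' t-test was a pooled-variance t-test of the compared groups, adjusted in the same way over all genes. The study's methods name limma, and its t-tests appear in supplementary legends. For the sample-channel folds of Ifng and Cd8a, each dim spot was set to the lowest signal that was well above background on its array, or to its own where higher. Sources used here do not say that samples came from separate animals, so p-values measure the spread between these samples. The members, lists and alternatives were chosen with earlier results of these data known. Named besides the members are genes of the Ifng pathway list (of which 1 is counted but not reported here), the 3 largest called changes of each list and comparison that were well above background on every array of the higher group, and the 5 genes most correlated with Ifng and with Cd3e, of those well above background on at least 8 arrays. Correlations within groups were tested with 100000 permutations. The number of arrays limits the precision.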

Additional observations from a re-analysis of the deposited data

Results flagged for a closer look

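In 77 groups of 4 to 6 values of single probes, 9 held a sample far from the rest by Dixon's criterion, which chance alone would flag in about 5% of groups. Metastases replicate 5 gave 5 of the 9. It had a log2 ratio of 3.20 for Cd8a, with the nearest other metastasis at 0.83. It had 3.50 for Cd3d (nearest 0.70), -0.58 for Cd3g (nearest -2.21), -3.00 for Thy1 (nearest -4.17) and 3.99 for the chromosome 6 probe of Cd8b1 (nearest 0.72). These 5 probes were read on the same array and are not independent of each other.

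Cd3d in untreated replicate 4 was 1.01, with the nearest untreated tumor at 0.25. Cd4 was 0.37 in untreated replicate 5 (nearest 0.17) and 0.26 in disseminated replicate 6, below the nearest value of 0.80. Ifng in carcinoma replicate 4 was 1.62, with the nearest carcinoma at 0.67.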

How the results depend on the processing

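The counts of the 10 genes called were recomputed under each alternative. The calls of Nkg7 in carcinomas and metastases against adenomas, of Thy1 in metastases against adenomas and of Gzmb in disseminated cells against adenomas and of Gzmb and Nkg7 in disseminated cells against carcinomas held under every alternative run. For relapsed against residual tumors (0 called), a normexp offset of 0 gave 1, the scanner software's processed signals 2 and median centring within arrays 1. For disseminated cells against adenomas (2 called), the count was 1 with processed signals, median centring, no or Aquantile normalization between arrays, quantile normalization over all arrays, the deposited matrix, the mean of a gene's probes, only the groups compared in the fit, the methods' t-test or an adjusted p below 0.01, and 4 without slide 9. For carcinomas against adenomas (4 called), it was 1 with no or Aquantile normalization and 2 with the deposited matrix or an adjusted p below 0.01. For metastases against adenomas (4 called), it was 2 with no or Aquantile normalization, the methods' t-test or an adjusted p below 0.01. For disseminated cells against carcinomas (4 called), it was 2 with an adjusted p below 0.01 or without slide 9. For metastases against carcinomas (0 called), it was 2 with processed signals and 1 with only the groups compared or with no change threshold. For metastases against disseminated cells (2 called), it was 1 with processed signals, an adjusted p below 0.01 or without slide 9, and 0 with only the groups compared or the methods' t-test. Nkg7 in disseminated cells against adenomas reversed to 0.0435 (adjusted p = 0.973) with no or Aquantile normalization between arrays, which leave the ratios alike; the cause was not tested. Ifng in disseminated cells against carcinomas was called with a normexp offset of 0, processed signals, median centring, the deposited matrix, dim probes left out, the replicate block or only the groups compared (adjusted p from 0.02 to 0.0445), and Cd3d there was lost under the replicate block (adjusted p = 0.0555) and the methods' t-test (adjusted p = 0.0672). Ifng in metastases against adenomas was lost with processed signals, median centring, quantile normalization over all arrays, the deposited matrix, only the groups compared, the methods' t-test or without slide 9 (adjusted p from 0.0636 to 0.144). The runs without slide 4 or 9 and without spots that the scanner flagged were chosen after seeing the data.

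When each sample was left out in turn, the count ranged from 0 to 1 for relapsed against residual tumors, from 2 to 4 for carcinomas, 1 to 3 for disseminated cells and 2 to 5 for metastases against adenomas, from 3 to 5 for disseminated cells against carcinomas and from 2 to 5 for metastases against disseminated cells, and was 0 throughout in the other comparisons and slopes. Besides the samples named above, leaving out adenoma 1, 3 or 4 or disseminated 1, 3, 5 or 6 took the count of disseminated cells against adenomas to 1.

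Samples with the same replicate number did not deviate together (14 of 45 such pairs correlated above 0.1, and 65 of 220 others). The replicate block gave 2 called genes in carcinomas against adenomas and 1 in disseminated cells against adenomas, and moved no other count of the 10 genes past 1.5 times.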
